A study of Mus musculus with 12 samples.

Results

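Of the 25210 genes in the deposited count table, 10 were followed here for their known parts in the growth of hair, teeth, nails and mammary buds. They were taken by gene symbol. The group holds the receptor genes Edar, Eda2r and Tnfrsf19, the adaptor gene Edaradd, the homeobox genes Msx1, Msx2 and Dlx3, and the transcription factor genes Foxn1, Tbx3 and Trps1. They were measured in primary mammary gland organoids, small clumps of mammary tissue kept in growth-factor-reduced Matrigel with minimal medium, from virgin FVB/N females aged 8 to 11 weeks. Each of 3 animals gave 1 culture (cultures 1, 2 and 3), and each culture was split over 4 treatments of 7 days: the vehicle DMSO, or the compound CHIR99021 in a concentration of 1, 1.5 or 3 µM. The compound blocks the kinase GSK3, which frees β-catenin (CTNNB1) to switch on genes of the WNT pathway. No genetic change is named in the labels, so the 4 groups of 3 libraries differ in the dose and share strain, sex, matrix and medium. RNA was taken from whole organoids, so fewer cells of a type and less RNA per cell cannot be told apart in any result given here.

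Ectodysplasin, the product of Eda, is a ligand of the tumour necrosis factor (TNF) family that acts on EDAR in the epithelium of developing skin appendages. EDAR works through its adaptor EDARADD to switch on the transcription factor NF-κB, and loss of any of the 3 genes causes hypohidrotic ectodermal dysplasia, with missing hair, teeth and sweat glands. EDA2R binds another splice form of the same ligand, and TNFRSF19 (also called TROY) is a related receptor, known as a WNT target in intestinal stem cells. MSX1, MSX2 and DLX3 are homeobox factors of the same buds, FOXN1 is the factor lost in nude mice and is needed for hair shafts and the maturing epidermis, TBX3 is needed to form the mammary placode, and TRPS1 is a GATA-type repressor that is abundant in mammary epithelium.

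The promoters of the 3 members whose levels moved most are shown first, because CHIR99021 acts through β-catenin and its DNA-binding partners of the TCF/LEF family. The sequences are RefSeq's, build GRCm38.p6, as the 250 bases upstream of a transcription start, read 5′ to 3′ on the gene's strand. RefSeq windows were matched for 7 of the 10 members, with 8 starts in all. Both strands were searched for the TCF/LEF core in its forms CTTTGAT and CTTTGTT, and matches are in capitals.
Edar, chr10:58675697-58675946, minus strand: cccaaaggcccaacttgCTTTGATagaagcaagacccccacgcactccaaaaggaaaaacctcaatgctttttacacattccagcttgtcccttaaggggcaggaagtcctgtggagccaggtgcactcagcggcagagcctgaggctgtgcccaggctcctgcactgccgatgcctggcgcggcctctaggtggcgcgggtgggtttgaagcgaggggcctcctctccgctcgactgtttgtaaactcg
Tnfrsf19, second start, chr14:61037988-61038237, minus strand: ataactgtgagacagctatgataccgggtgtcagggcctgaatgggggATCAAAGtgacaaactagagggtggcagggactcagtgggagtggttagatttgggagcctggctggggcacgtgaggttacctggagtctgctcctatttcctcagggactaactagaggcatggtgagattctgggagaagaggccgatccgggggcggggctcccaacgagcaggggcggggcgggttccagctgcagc
Foxn1, chr11:78386609-78386858, minus strand: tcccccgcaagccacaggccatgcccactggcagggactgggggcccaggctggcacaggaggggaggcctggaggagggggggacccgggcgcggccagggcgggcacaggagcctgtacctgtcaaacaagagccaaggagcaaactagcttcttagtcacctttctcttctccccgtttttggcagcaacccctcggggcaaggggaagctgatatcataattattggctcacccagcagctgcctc
Edar had CTTTGAT with its first base 233 bases upstream of the start, and the second start of Tnfrsf19 had its reverse complement, ATCAAAG, 202 bases upstream. Tnfrsf19 has another window, not printed here, at its first start (chr14:61046856-61047105), next to the gene's upstream end at 61046855. Neither form was in that window, in the window of Foxn1 or in the rest. Over 32851 such windows of mouse genes, 3.21% held CTTTGAT, 5.03% held CTTTGTT and 8.06% held either. These matches are letters only and do not show that a factor is bound.

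Totals ran from 10.1 to 24.5 M counts per library, with DMSO culture 2 the smallest. Axin2, the usual feedback target of β-catenin, rose from 2.75 ± 0.49 counts per 1 M of the scaled library total (CPM) in DMSO to 83.8 ± 42.3 at 3 µM (SD, n = 3), which is the order the dose labels give. Summed levels of cell type markers differed between the doses. Summed over 13 squamous markers, the level in cultures 1, 2 and 3 was 95.1, 40.8 and 43.2 CPM in DMSO and 35426, 33028 and 10721 CPM at 3 µM, with Sprr2d at 0 in all 3 DMSO libraries and no marker at 0 in all 3 at 3 µM. All 10 fibroblast markers were detected in every DMSO and 3 µM library, and their sum was 4565, 10856 and 25471 CPM in DMSO and 277, 1319 and 5714 CPM at 3 µM. Sums of 8 epithelial markers, Epcam and keratins among them, were 3364 to 5811 CPM in DMSO and 16647 to 33413 CPM at 3 µM. The highest of them were Krt14 and Krt8 in DMSO and the basal keratin genes Krt14 and Krt5 at 3 µM. A list of 8 basal and myoepithelial markers shares Krt5 and Krt14. It summed to 2102 to 3334 CPM in DMSO and 14449 to 31294 CPM at 3 µM. At 3 µM culture 3 had the highest fibroblast sum and the lowest squamous sum. The part of these markers in the results below was not tested, and sums set beside a gene are descriptions only.

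At 3 µM the 10 genes parted. Tnfrsf19, Foxn1 and Dlx3 rose and Edar fell, which makes 4 of 10 called at an adjusted p under 0.05 against 57.5% of the 15316 genes tested, 29.9% higher and 27.7% lower (edgeR's quasi-likelihood test, Benjamini-Hochberg adjusted over all genes tested). All 10 passed the filter on low counts. The model with the culture as a block called 7 of 10 against a background of 68.9%, adding Edaradd, Trps1 and Msx1, and DESeq2 called the same number against 48.1% of the 19329 genes to which it gave an adjusted p. Libraries of the 2 groups did not overlap for 3 members that were higher, against 30.9% of all genes, and for 2 that were lower, Edar and Msx1, against 29.9%. At 1.5 µM 1 of 10 was called, Foxn1, against 27.3% of all genes, and 2 of 10 with the block against 46.7%. At 1 µM 0 of 10 were called, against 0.242% of all genes (5.61% with the block), and DESeq2 also called 0 (3.42% of the genes it tested). Foxn1 alone had an unadjusted p under 0.05 there in edgeR. Without the block, edgeR's share of members called was below that of all genes at 1.5 and 3 µM, a gap of few genes in a group of 10. At 3 µM the shares with the block and in DESeq2 were not below those of all genes. The median log2 fold change of the 10 at 3 µM was 0.66, and that of all genes tested was −0.03.

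**Figure D1:**
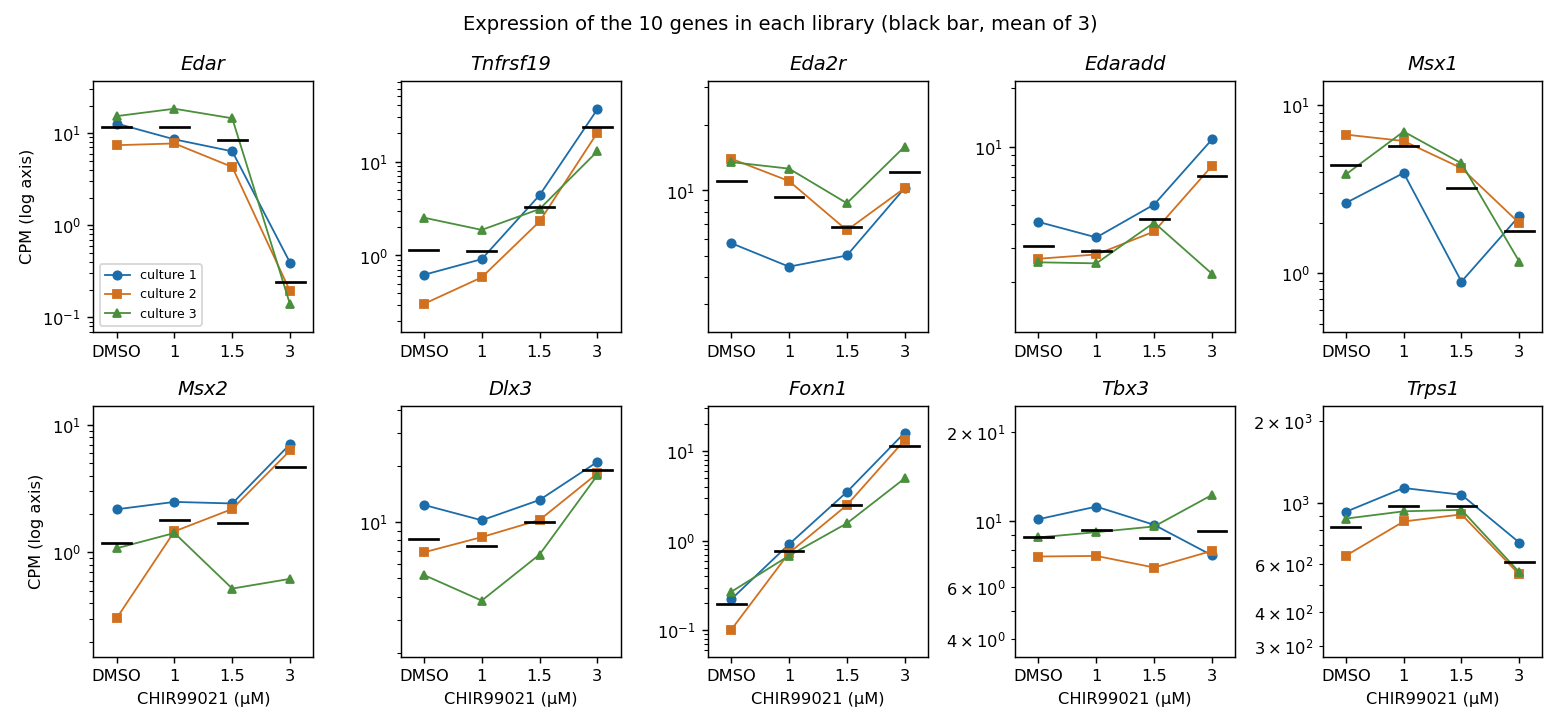
Expression of the 10 genes in CPM on log axes (each panel has its own range) against the CHIR99021 treatment, whose doses are evenly spaced on the axis. Each coloured line is 1 culture and each black bar the mean of 3 libraries; Edar drops to 0.138 to 0.392 CPM at 3 µM while Tnfrsf19 and Foxn1 climb, and Tbx3 stays between 6.99 and 12.3 CPM throughout.

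**Figure D2:**
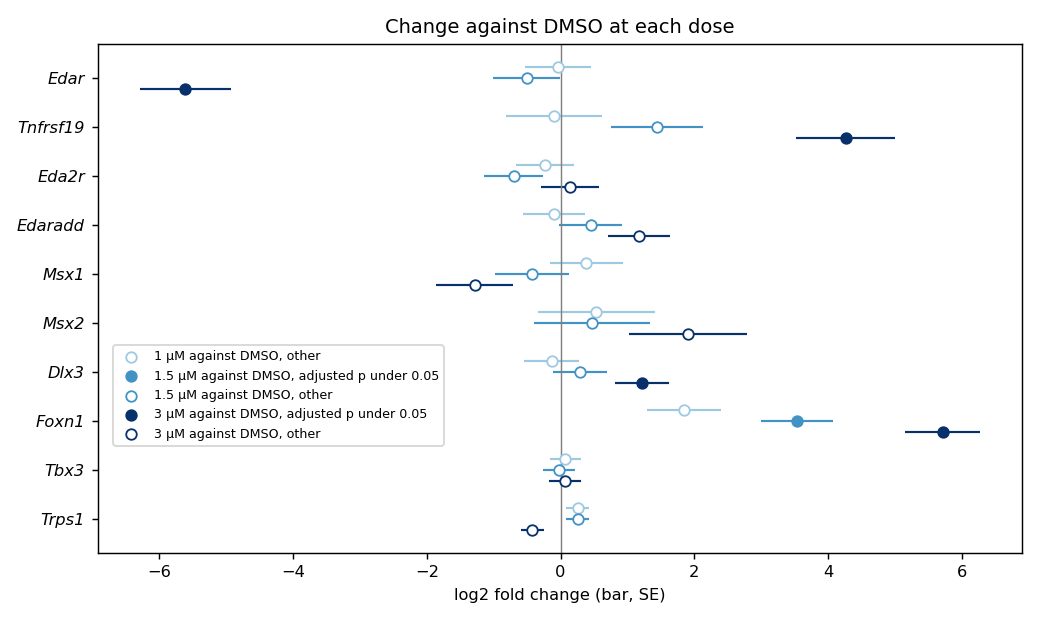
Change of each gene against DMSO at 1, 1.5 and 3 µM as log2 fold change from edgeR, with bars of 1 SE; filled points have an adjusted p under 0.05. At 3 µM Edar lies at −5.61 and Foxn1 at 5.72, and Tbx3 and Eda2r lie near 0 at 0.07 and 0.14.

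Among the receptors, Edar (ENSMUSG00000003227, chromosome 10, 58600789 to 58675654, minus strand) was nearly lost at the highest dose. In cultures 1, 2 and 3 its level was 12.7, 7.41 and 15.3 CPM in DMSO, 8.57, 7.74 and 18.5 CPM at 1 µM, and 6.36, 4.30 and 14.5 CPM at 1.5 µM. At 3 µM it was 0.392, 0.192 and 0.138 CPM, which is 5, 3 and 2 counts. All 3 libraries at 3 µM lay far below the 9 others, whereas the groups up to 1.5 µM overlapped. The log2 fold change at 3 µM was −5.61 ± 0.68 (SE, adjusted p = 8.87e-05), and lower in 3 of 3 cultures. Since it rests on 10 counts at 3 µM, the depth-scaled ratio of pooled counts was also taken, and DMSO was 54.3 times higher with an exact 95% interval of 29.3 to 114 that covers counting error only. At 1.5 µM the level was lower in 3 of 3 cultures, with a log2 fold change of −0.50 ± 0.50 (adjusted p = 0.484, with the block 0.0812). From 1.5 to 3 µM the log2 fold change was −5.11 ± 0.68 (adjusted p = 0.000773). The called drop lay between the 2 highest doses. The squamous sum and the epithelial sum of each culture were above those in DMSO at 1, 1.5 and 3 µM. Edar was called lower than in DMSO at 3 µM only, and any link to these sums was not tested.

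Tnfrsf19 (ENSMUSG00000060548, chromosome 14, 60963834 to 61046855, minus strand) took the opposite course. It was at 0.622, 0.304 and 2.53 CPM in DMSO, 0.913, 0.584 and 1.87 at 1 µM, 4.39, 2.30 and 3.13 at 1.5 µM, and 36.2, 20.4 and 12.9 CPM at 3 µM. The 3 µM libraries were above all others, and culture 3 stood apart with the highest level in DMSO and the lowest at 3 µM. The log2 fold change at 3 µM was 4.27 ± 0.74 (adjusted p = 0.000803), higher in 3 of 3 cultures, and without culture 3 it was 5.78 (adjusted p of at most 0.0235 over the fits that left out 1 library or 1 culture). At 1.5 µM it was 1.44 ± 0.69 (adjusted p = 0.148), and leaving out DMSO culture 3 brought it to 2.66 (adjusted p = 0.0219). From 1.5 to 3 µM the gene rose again by 2.83 ± 0.68 (adjusted p = 0.0126), a call that was lost without the 1.5 µM library of culture 2 (adjusted p = 0.0532), without culture 1 (0.106) or without culture 2 (0.133). A lincRNA, Gm41168, overlaps Tnfrsf19 on the opposite strand in GENCODE M21. Whether the counting used the strand is not given in the sources used here, so reads of the pair may not be told apart.

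Compared per length, in CPM per kilobase of exon (RPKM), the 2 receptors changed places. Edar was at 3.50, 2.04 and 4.22 RPKM in DMSO and at 0.108, 0.0529 and 0.0379 RPKM at 3 µM, and Tnfrsf19 was at 0.131, 0.0643 and 0.534 RPKM in DMSO and at 7.64, 4.30 and 2.72 RPKM at 3 µM. In DMSO Edar exceeded Tnfrsf19 by 26.7, 31.7 and 7.90 times in cultures 1, 2 and 3. At 1.5 µM the excess had shrunk to 1.89, 2.43 and 6.06 times. At 3 µM Tnfrsf19 exceeded Edar by 70.9, 81.4 and 71.8 times. The ratios in DMSO rest on 14, 3 and 47 counts of Tnfrsf19 and those at 3 µM on 5, 3 and 2 counts of Edar. Their size, and how alike they are between cultures, is therefore not well known. The order of the 2 genes was the same in all 9 libraries up to 1.5 µM and the reverse in all 3 at 3 µM.

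**Figure D3:**
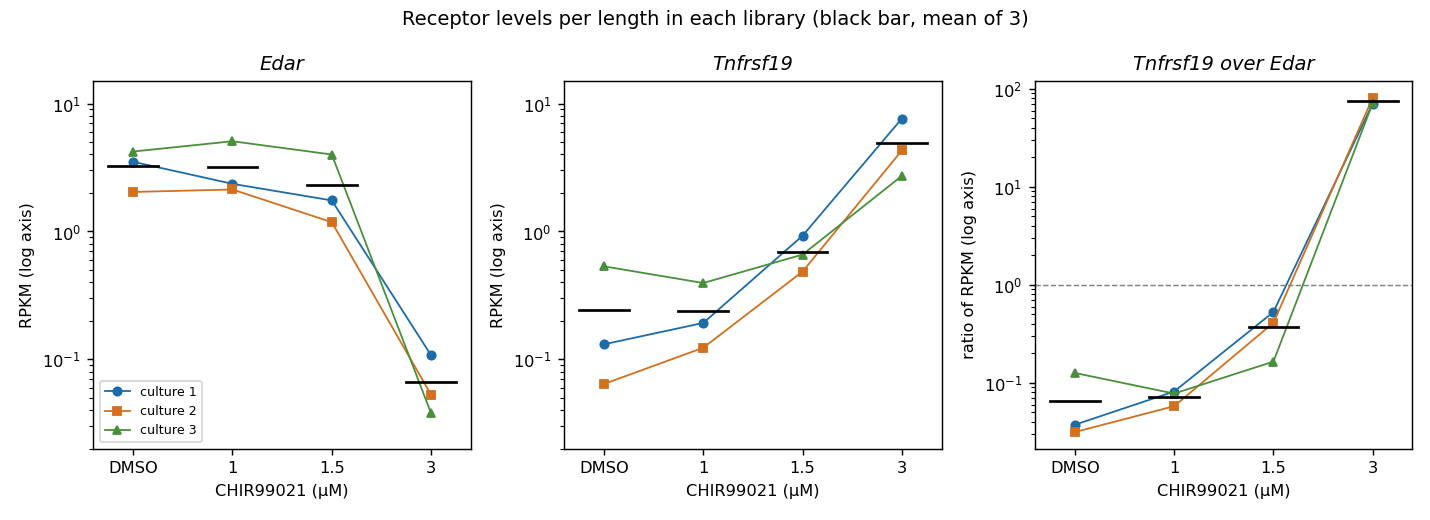
Levels of Edar and Tnfrsf19 in RPKM and their ratio, on log axes, by treatment; coloured lines are the 3 cultures, black bars the mean of 3 libraries and the dashed line equal levels. The ratio lies below 1 in the 9 libraries up to 1.5 µM and between 70.9 and 81.4 in the 3 libraries at 3 µM, where Edar had 2 to 5 counts.

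Eda2r (ENSMUSG00000034457, chromosome X, 97333840 to 97377216, minus strand), a receptor gene that p53 also drives, showed no called difference between doses. Its level was 5.73, 14.0 and 13.5 CPM in DMSO, 4.46, 11.1 and 12.6 at 1 µM, 5.03, 6.57 and 8.74 at 1.5 µM, and 10.3, 10.3 and 15.9 CPM at 3 µM. Culture 1 was below the other cultures in the first 3 treatments, and every pair of neighbouring groups overlapped except 1.5 and 3 µM. Against DMSO the log2 fold change at 3 µM was 0.14 ± 0.43 (adjusted p = 0.798). From 1.5 to 3 µM it was 0.84 ± 0.44 (adjusted p = 0.171), higher in 3 of 3 cultures, and passed the threshold with the block (adjusted p = 0.0183).

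Edaradd (ENSMUSG00000095105, chromosome 13, 12471209 to 12520450, minus strand), the adaptor of EDAR, was not lost with its receptor. It had 4.09, 2.64 and 2.53 CPM in DMSO, 3.40, 2.78 and 2.50 at 1 µM, 5.03, 3.65 and 4.05 at 1.5 µM, and 10.9, 7.95 and 2.21 CPM at 3 µM. Cultures 1 and 2 were highest at 3 µM and culture 3 was not, so the groups overlapped. Against DMSO its log2 fold change at 3 µM was 1.17 ± 0.47 (adjusted p = 0.0530), and it passed with the block (0.0267), in DESeq2 (0.0405), without the 3 µM library of culture 3 (log2 fold change 1.58, adjusted p = 0.00118) and without culture 3 altogether (1.45, 0.00913). Against 1 µM the gene rose by 1.27 ± 0.47 (adjusted p = 0.0423), a call lost in 10 of the 12 fits that left out 1 library, with adjusted p-values of up to 0.190. In the same 2 cultures at 3 µM the proliferation sum of 10 genes was 1302 and 1595 CPM, against 608 CPM in culture 3 and 202 to 246 CPM in DMSO.

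The ligand gene Eda was expressed at 5.86, 6.09 and 7.27 CPM in DMSO and 6.66, 5.84 and 8.69 CPM at 3 µM, with overlapping groups and a log2 fold change of 0.14 ± 0.23 (adjusted p = 0.616). Of 20 genes of the EDA route from ligand to NF-κB, the members apart, 8 rose and 1 fell at 3 µM, and 7 rose and 2 fell at 1.5 µM, with median log2 fold changes of 0.33 and 0.23. That is 45.0% of the list at each dose, against 57.5% and 27.3% of all genes. The count at 1.5 µM was 4 or 5 without the 1.5 µM library of culture 1 or 2 or the DMSO library of culture 2 or 3. It was 2 without culture 1 and 1 without culture 2. Calls over all genes at 1.5 µM fell from 4177 to between 2462 and 3208 in the fits without 1 of those libraries. They fell to 1539 without culture 1 and 457 without culture 2. The count of the list at 3 µM lay between 6 and 13 over all settings tried. Tnfaip3 encodes A20, a brake on NF-κB that NF-κB itself induces, and it rose from 17.5 ± 1.4 CPM in DMSO to 56.4 ± 11.8 at 1.5 µM and 69.2 ± 11.7 at 3 µM (log2 fold changes 1.69 and 1.99, adjusted p = 0.00109 and 8.57e-05). Nfkbiz, a nuclear IκB protein gene, rose by 1.73 ± 0.26 at 3 µM (adjusted p = 0.000303). Nfkb2 and Traf3, both of the non-canonical NF-κB route, rose by 0.64 ± 0.11 and 0.55 ± 0.09 (adjusted p = 0.000555 and 0.000455). Traf1 was the member of the list that fell at 3 µM, by 2.11 on the log2 scale (adjusted p = 0.0324), and is named here after its value was seen. These genes answer many receptors, and their changes were not tied to EDAR by any test.

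Genes known to be switched on by EDAR in embryonic skin or mammary buds were also looked at. Of 14 listed, 9 could be tested and 4 of these (44.4%) rose at 3 µM and 0 fell, against 57.5% of all genes called and 29.9% higher, with a median log2 fold change of 1.99 over the 9. Another 5 did not pass the filter: Dkk4, Fgf20, Shh, Ltb and Cxcl11 had at most 1, 1, 4, 10 and 13 counts in any library. Edar was at its lowest at the same dose, and any link of the 4 that rose to EDAR was not tested. Areg, which encodes the growth factor amphiregulin of ductal growth, had 1.69, 1.32 and 2.37 CPM in DMSO and 33.7, 44.6 and 44.9 CPM at 3 µM (log2 fold change 4.49 ± 0.33, adjusted p = 4.61e-06). Epgn, the gene of epigen, another ligand of the EGF receptor, had 3.69, 0.812 and 0.969 CPM in DMSO and 109, 88.1 and 41.4 CPM at 3 µM (5.37 ± 0.72, adjusted p = 0.000162). Wnt10a, a WNT ligand gene of skin appendages, went from 7.46, 2.54 and 2.05 CPM to 27.7, 33.7 and 15.7 CPM (2.65 ± 0.52, adjusted p = 0.00170). Pthlh, which encodes the peptide that signals from mammary bud to mesenchyme, went from 1.51, 1.12 and 1.02 CPM to 2.43, 8.14 and 17.0 CPM (2.90 ± 0.74, adjusted p = 0.00711). The 3 µM libraries were above the DMSO libraries for all 4, and culture 3 was lowest at 3 µM for Epgn and Wnt10a and highest for Pthlh. At 1.5 µM Areg, Epgn and Wnt10a also rose, by 1.25, 3.11 and 1.79 (adjusted p = 0.0139, 0.00759 and 0.0267). Without culture 2 the calls of Wnt10a and Pthlh at 3 µM were lost (adjusted p = 0.0733 and 0.0982) and 2 of 9 remained called. Of all genes 4769 were called there, against 8813 from all cultures. Without culture 3, or its 3 µM library, the count was 7, of which 6 were higher and 1 lower, with 8948 and 9391 of all genes called. At 1.5 µM the count was 4 (4177 of all genes). It fell to 1 without DMSO culture 2 (2462) and to 2 without DMSO culture 3 (3208). It was also 2 without the 1.5 µM library of culture 1 (2577) or 2 (2872), and 0 without culture 2 (457). Areg at 1.5 µM lost its call without DMSO culture 2, and Wnt10a without the DMSO or 1.5 µM library of culture 2, DMSO culture 3 or the 1.5 µM library of culture 1.

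**Figure D4:**
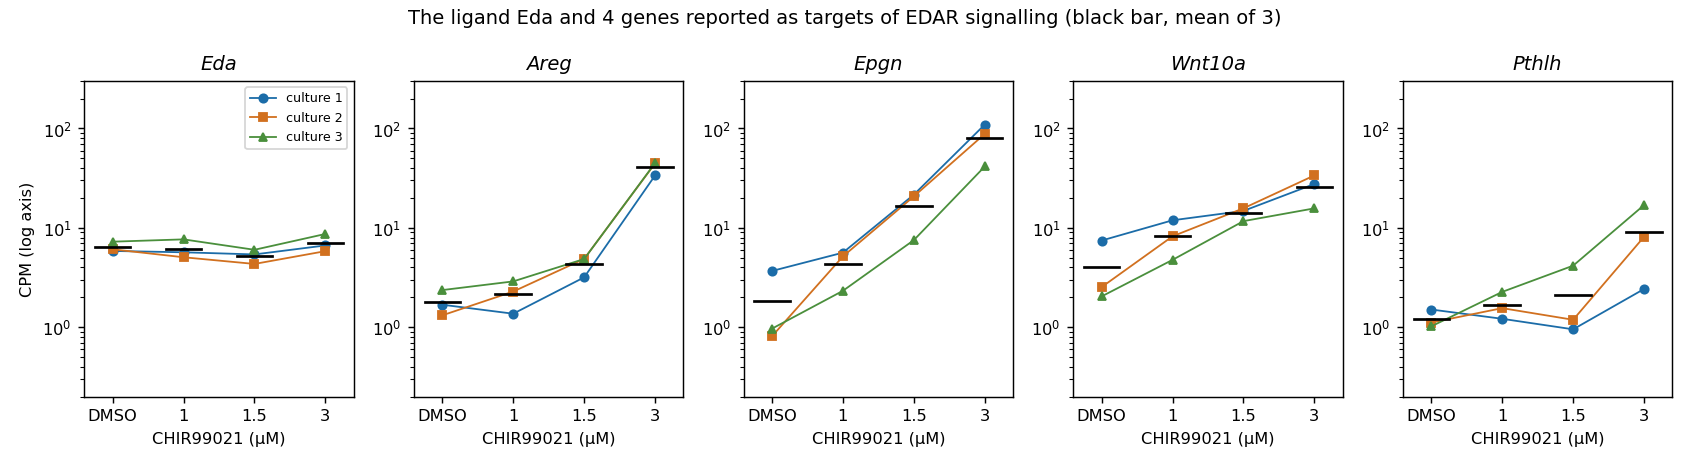
CPM of the ligand gene Eda and of 4 genes known as targets of EDAR, on a common log axis, by treatment; coloured lines are cultures and black bars the mean of 3 libraries. Eda stays between 4.34 and 8.69 CPM in the 12 libraries, and the other 4 genes are higher at 3 µM than in DMSO in every culture.

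Signals of placode and bud growth around EDAR were mixed. Of 24 listed genes 21 were tested, and 3 rose and 3 fell at 3 µM (28.6% against 57.5% of all genes), with a median log2 fold change of −0.04; 2 of the 3 that rose were Wnt10a and Pthlh, also in the list of EDAR targets. The third was Bmp7, a BMP ligand gene, from 9.45 ± 2.53 to 30.7 ± 2.2 CPM (1.69 ± 0.24, adjusted p = 0.000204). Pth1r, the receptor gene for the peptide of Pthlh and a gene of mammary mesenchyme, fell from 5.77, 14.7 and 12.5 CPM in DMSO to 0.157, 1.41 and 1.86 CPM at 3 µM, by 3.24 ± 0.84 on the log2 scale (adjusted p = 0.00802, and 0.130 without culture 2), while the fibroblast sum was lower in every culture. Lef1, the TCF/LEF factor gene of appendage buds, was at 0.254 to 1.61 CPM in all libraries (log2 fold change at 3 µM 0.64 ± 0.66, adjusted p = 0.426). The count of called genes was 2 without culture 2, 4 with only the 2 groups fitted and 9 of 21 with the block, where 68.9% of all genes were called. Of all genes 4769 were called without culture 2 and 7126 with only the 2 groups fitted, against 8813 from all 12 libraries. Of 12 WNT feedback genes tested, 4 rose and 2 fell at 3 µM (6 of 12 against 57.5% of all genes). Axin2 was among those that rose and Lgr5 among those that fell. Lgr5 went from 187 ± 39.6 CPM in DMSO to 0.288 ± 0.168 at 3 µM (log2 fold change −9.34 ± 0.45, adjusted p = 8.92e-07).

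The wider TNF receptor family moved in both directions. Of 24 other family members, 22 were tested, and 8 rose and 9 fell at 3 µM (77.3% against 57.5% of all genes), with a median log2 fold change of −0.21. At 1.5 µM 4 fell and 0 rose (18.2% against 27.3% of all genes), and with the block 8 fell and 2 rose, where 46.7% of all genes were called. The count at 3 µM was 11 without DMSO culture 3, 9 without culture 1 and 4 without culture 2. Calls over all genes fell in the same fits from 8813 to 7706, 6688 and 4769. Ltbr, the lymphotoxin β receptor gene, fell by 0.72 ± 0.07 on the log2 scale (adjusted p = 2.56e-05) and Tnfrsf1a, the TNF receptor gene, fell by 0.60 ± 0.11 (adjusted p = 0.00133). Tnfrsf23, a decoy receptor gene, rose by 2.46 ± 0.42 (adjusted p = 0.000748) and Tnfrsf12a, the TWEAK receptor gene, by 1.41 ± 0.22 (adjusted p = 0.000392).

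The 2 Msx genes went different ways. Msx1 (ENSMUSG00000048450, chromosome 5, 37820485 to 37824583, minus strand), known from mesenchyme and epithelium of tooth and mammary buds, had 2.62, 6.70 and 3.87 CPM in DMSO, 3.96, 6.14 and 6.98 at 1 µM, 0.891, 4.22 and 4.52 at 1.5 µM, and 2.19, 1.99 and 1.17 CPM at 3 µM. The 3 µM libraries were below every DMSO and every 1 µM library, but not below the 1.5 µM library of culture 1. Against DMSO the log2 fold change was −1.28 ± 0.57 (adjusted p = 0.0769), and it passed with the block (0.0498), in DESeq2 (0.0491) and without the 1.5 µM library of culture 1 (0.0220). Against 1 µM the gene fell by 1.67 ± 0.57 (adjusted p = 0.0314), a call lost in 5 of the 12 fits that left out 1 library (adjusted p of up to 0.0874). Sums over the 9 genes in the table of a dermal papilla and mesenchyme list were 113, 260 and 254 CPM in DMSO and 26.5, 123 and 461 CPM at 3 µM, lower in cultures 1 and 2 and higher in culture 3, and no gene of that list was at 0 in all 3 libraries of either group. The highest gene of that list was Prrx1 in DMSO and Crabp1 at 3 µM. The fibroblast sum of culture 3 went the other way, from 25471 CPM in DMSO to 5714 CPM at 3 µM. Msx1 was lower at 3 µM than in DMSO in 3 of 3 cultures, and any link to either sum was not tested.

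Msx2 (ENSMUSG00000021469, chromosome 13, 53466884 to 53473074, minus strand), a BMP-responsive gene of hair, nail and mammary epithelium, split the cultures. It was at 2.18, 0.304 and 1.08 CPM in DMSO, 2.49, 1.46 and 1.42 at 1 µM, 2.42, 2.19 and 0.521 at 1.5 µM, and 7.05, 6.28 and 0.621 CPM at 3 µM. Cultures 1 and 2 were highest at 3 µM, while in culture 3 both of the higher doses were below DMSO. The log2 fold change at 3 µM was 1.91 ± 0.88 (adjusted p = 0.0871, with the block 0.0503), and it passed without the 3 µM library of culture 3 (2.40, adjusted p = 0.0170) and without culture 3 (2.27, 0.0280). A slope on dose was called over all 12 libraries, at 0.64 ± 0.25 per µM on the log2 scale (adjusted p = 0.0423), and that call was lost in 8 of the 12 fits that left out 1 library (adjusted p of up to 0.186). Slopes within cultures 1, 2 and 3 were 0.58, 1.26 and −0.34. The test of their difference in edgeR, added after these values had been seen, gave an adjusted p of 0.394. It called 0 of 15316 genes, with 1230 at an unadjusted p under 0.05, and was not run in another tool. In RPKM, Msx1 exceeded Msx2 by 1.27, 23.3 and 3.81 times in DMSO, where culture 2 had only 3 counts of Msx2. At 3 µM Msx2 exceeded Msx1 by 3.04 and 2.99 times in cultures 1 and 2 and was at 0.50 of it in culture 3.

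**Figure D5:**
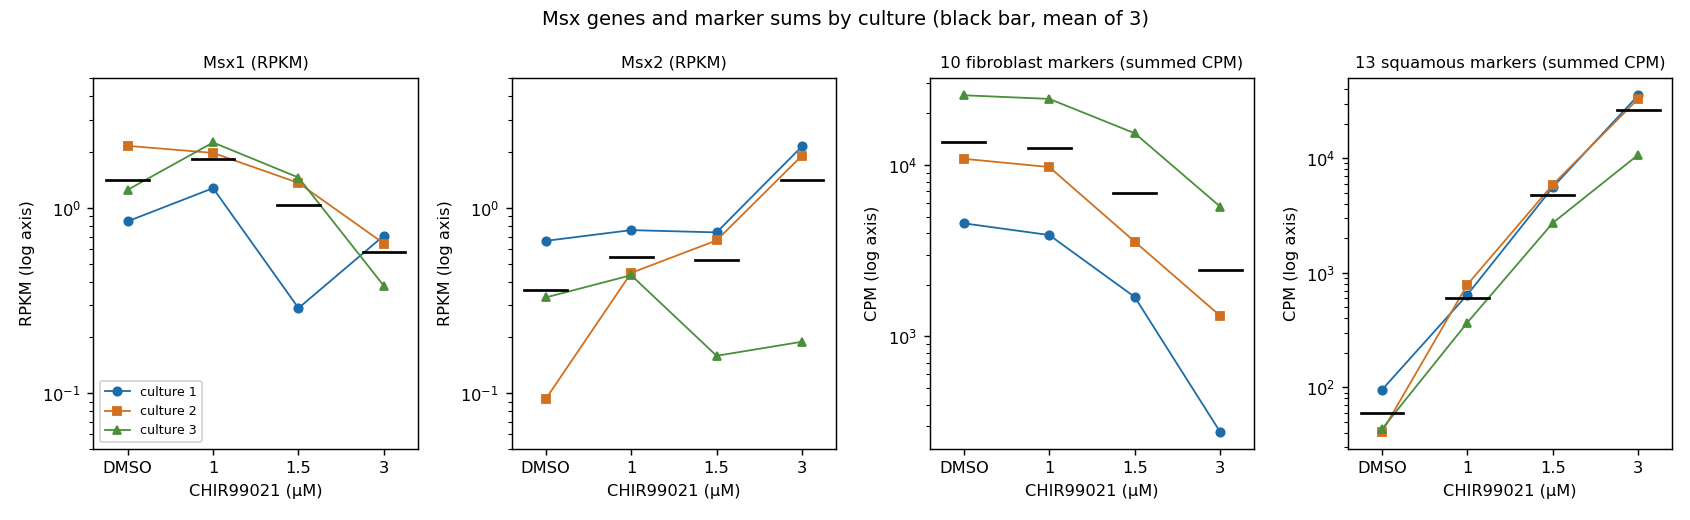
Msx1 and Msx2 in RPKM beside the summed CPM of 10 fibroblast and 13 squamous markers, all on log axes, by treatment; coloured lines are cultures and black bars the mean of 3 libraries. At 3 µM culture 3 has the lowest Msx2 level, the highest fibroblast sum (5714 CPM) and the lowest squamous sum (10721 CPM).

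Dlx3 (ENSMUSG00000001510, chromosome 11, 95120119 to 95125296, plus strand), a homeobox gene of hair, teeth and the differentiating epidermis, rose at the highest dose, with a smaller log2 fold change than those of Tnfrsf19 and Foxn1. It had 12.4, 6.90 and 5.22 CPM in DMSO, 10.2, 8.33 and 3.80 at 1 µM, 13.2, 10.3 and 6.72 at 1.5 µM, and 21.1, 18.3 and 17.9 CPM at 3 µM. The 3 cultures differed at the lower doses, with culture 1 highest and culture 3 lowest, and came close together at 3 µM above all other libraries. Against DMSO the gene rose at 3 µM by 1.22 ± 0.41 on the log2 scale (adjusted p = 0.0263, with the block 0.000757), higher in 3 of 3 cultures. The call was lost without DMSO culture 2 (adjusted p = 0.0883), DMSO culture 3 (0.0996), the 3 µM library of culture 1 (0.0749) or of culture 2 (0.0579), without culture 2 altogether (0.220), and with library size as the only scaling (0.0617). From 1.5 to 3 µM the log2 fold change was 0.92 ± 0.40 (adjusted p = 0.110) and passed with the block (0.00651).

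Of 26 other transcription factor genes of skin appendages, 22 were tested, and 8 rose and 2 fell at 3 µM (45.5% against 57.5% of all genes, and with the block 16 of 22 where 68.9% of all genes were called), with a median log2 fold change of 0.60. At 1.5 µM 6 rose and 1 fell (31.8% against 27.3% of all genes). The count was 4 without DMSO culture 2, DMSO culture 3 or culture 1, and 0 without culture 2. Calls over all genes fell in these fits from 4177 to 2462, 3208, 1539 and 457. Ovol1, a β-catenin target of maturing epidermis, rose from 5.79 ± 3.15 to 81.4 ± 10.4 CPM at 3 µM (3.79 ± 0.44, adjusted p = 6.37e-05). Trp63, the p63 gene of basal cells in stratified epithelia, rose by 2.68 ± 0.33 (adjusted p = 9.51e-05), and Foxq1, a hair shaft factor gene, by 4.44 ± 0.69 (adjusted p = 0.000406). The homeobox gene Dlx5 was at 8.57, 4.87 and 0.861 CPM in DMSO and 9.56, 8.08 and 3.72 CPM at 3 µM, a log2 fold change of 0.57 ± 0.83 (adjusted p = 0.574, with the block 0.0271). Hoxc13, the homeobox gene that drives hair and nail keratins, was at 1.69, 0.304 and 0 CPM in DMSO and 6.03, 8.66 and 0.483 CPM at 3 µM (2.84 ± 1.22, adjusted p = 0.0701, with the block 0.00330). Over all libraries its highest levels were in the 3 µM libraries of cultures 1 and 2, as was seen for Msx2. The 2 genes differed in culture 3. There Hoxc13 was also highest at 3 µM, on 7 counts against 0 in DMSO, so it was higher in 3 of 3 cultures. Msx2 in culture 3 was lower at 3 µM than in DMSO (0.621 against 1.08 CPM).

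Foxn1 (ENSMUSG00000002057, chromosome 11, 78357577 to 78386558, minus strand) had the largest increase of the 10, and its levels were in the order of the doses in every culture. It was at 0.222, 0.101 and 0.269 CPM in DMSO, which is 5, 1 and 5 counts, then at 0.913, 0.730 and 0.681 at 1 µM, 3.50, 2.50 and 1.56 at 1.5 µM, and 16.1, 13.3 and 4.97 CPM at 3 µM. The libraries of the 4 groups did not overlap at any step, and culture 3 was the lowest from 1 µM on. The log2 fold changes against DMSO were 1.85 ± 0.55 at 1 µM (adjusted p = 0.219, with the block 0.0620), 3.54 ± 0.54 at 1.5 µM (adjusted p = 0.00151) and 5.72 ± 0.56 at 3 µM (adjusted p = 2.30e-05), each higher in 3 of 3 cultures. Non-overlap of the 1 µM and DMSO libraries in the higher direction was seen for 11.2% of all genes, for 24.9% at 1.5 µM against DMSO, for 19.3% at 1.5 against 1 µM and for 23.1% at 3 against 1.5 µM. The pooled counts of 484 at 3 µM and 11 in DMSO give a depth-scaled ratio of 52.3 with an exact 95% counting interval of 29.0 to 106. From 1 to 1.5 µM it was higher by 1.69 ± 0.46 (adjusted p = 0.0630, with the block 0.0103, in DESeq2 0.0210), and from 1.5 to 3 µM it rose by 2.18 ± 0.45 (adjusted p = 0.00577). The call at 1.5 µM was lost without culture 2 (adjusted p = 0.0766), and that from 1.5 to 3 µM without culture 1 (0.0684) or culture 2 (0.148). The squamous sum, like Foxn1, was in the order of the doses in every culture. Over cultures the sum and Foxn1 had the same order at 3 µM only, highest in culture 1 and lowest in culture 3. At 1 and 1.5 µM both were lowest in culture 3, but the sum was highest in culture 2 and Foxn1 in culture 1. In DMSO the sum was highest in culture 1 and Foxn1 in culture 3. With 1 to 5 counts of Foxn1 in DMSO and 12 to 18 at 1 µM, its order over cultures there is not firm. Any link between the sum and Foxn1 was not tested.

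Hair keratin genes, which FOXN1 and HOXC13 are known to drive, were looked at beside it. Of 13 listed, 7 were in the table and 2 could be tested. In this list 1 of the 2 rose at 3 µM and 0 fell, against 57.5% of all genes called and 29.9% higher. Krt36 was not called (log2 fold change 1.04, adjusted p = 0.523). Krt32, Krt35, Krt81, Krt82 and Krt83 did not pass the filter, with at most 13, 1, 4, 1 and 14 counts in any library. With only 2 tested, the list cannot show a change of hair keratins as a group. Krt84, a nail and hair keratin gene, had 0, 0 and 4 counts in DMSO and 455, 654 and 17 counts at 3 µM (adjusted p = 0.000871, and 0.0662 without culture 2). In CPM this was 35.6, 41.9 and 1.17 at 3 µM. Cultures 1 and 2 held nearly all of it, the same 2 cultures that had Msx2 and Hoxc13 at their highest levels.

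Tbx3 (ENSMUSG00000018604, chromosome 5, 119670669 to 119684724, plus strand) showed no called difference at any dose. It was at 10.2, 7.61 and 8.83 CPM in DMSO, 11.2, 7.64 and 9.20 at 1 µM, 9.73, 6.99 and 9.61 at 1.5 µM, and 7.68, 7.95 and 12.3 CPM at 3 µM, with overlap between all groups. The log2 fold change at 3 µM was 0.07 ± 0.24 (adjusted p = 0.825), and those of the fits that left out 1 library or 1 culture ran from −0.21 to 0.30. An antisense gene, Tbx3os1, overlaps Tbx3 on the opposite strand, with the same limit as for Tnfrsf19. Tbx2, the close relative of Tbx3, also expressed in mammary bud and mesenchyme, fell from 4.49, 11.5 and 6.14 CPM in DMSO to 0.705, 1.41 and 0.759 CPM at 3 µM, by 2.91 ± 0.47 on the log2 scale (adjusted p = 0.000518). Tbx2 had also fallen at 1.5 µM, by 2.06 ± 0.45 (adjusted p = 0.00809, and 0.0793 without culture 2). The fibroblast sum was lower at 3 µM in the same 3 cultures.

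Trps1 (ENSMUSG00000038679, chromosome 15, 50654752 to 50890463, minus strand) was by far the most abundant of the 10 and moved within a narrow range. It was at 929, 642 and 877 CPM in DMSO, 1135, 856 and 933 at 1 µM, 1072, 909 and 945 at 1.5 µM, and 717, 548 and 558 CPM at 3 µM. Each culture was higher at 1 and 1.5 µM than in DMSO and lowest at 3 µM, although the DMSO library of culture 2 lay within the 3 µM range. From 1.5 to 3 µM Trps1 fell by 0.68 ± 0.17 on the log2 scale (adjusted p = 0.0145), and from 1 to 3 µM by the same amount (adjusted p = 0.00751). Against DMSO the log2 fold change at 3 µM was −0.42 ± 0.17 (adjusted p = 0.0538), and it passed with the block (0.00341), in DESeq2 (0.0438) and without DMSO culture 2 (0.0131). At 1.5 µM it was 0.26 ± 0.17 (adjusted p = 0.284, with the block 0.0433). The call from 1.5 to 3 µM was lost without the 1.5 µM library of culture 1 (0.0532), the 3 µM library of culture 2 (0.0606), or any 1 culture (0.0603, 0.105 and 0.0866 without cultures 1, 2 and 3), and that from 1 to 3 µM without culture 3 (0.0615).

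Between doses of CHIR99021 the counts of called members were 0 of 10 from 1 to 1.5 µM (5.43% of all genes, and 1 against 21.9% with the block), 4 of 10 from 1.5 to 3 µM (29.7%, and 6 against 46.7% with the block) and 7 of 10 from 1 to 3 µM (52%, and 7 against 66% with the block). From 1 to 1.5 µM Foxn1 was the gene called with the block and in DESeq2 (10.4% of the genes it tested), and the 1 member with an unadjusted p under 0.05 in edgeR. From 1.5 to 3 µM Tnfrsf19 and Foxn1 rose (17% of all genes) and Edar and Trps1 fell (12.7%), and without culture 1 or culture 2 the count was 1. Calls over all genes fell there from 4545 to 1171 without culture 1 and 345 without culture 2. The count from 1 to 3 µM held Edaradd, Tnfrsf19, Dlx3 and Foxn1 higher (27.8% of all genes) and Edar, Msx1 and Trps1 lower (24.2%). It was 4 without the 3 µM library of culture 1, the 1 µM library of culture 3 or culture 2. In these fits 6731, 6740 and 3583 of all genes were called, against 7967 from all libraries. The comparisons at 3 µM share the same 3 libraries. As a slope per µM over all doses, 6 of 10 members were called against 58.2% of all genes (6 against 64.5% with the block), 5 rising against 30.2% and 1 falling against 28%. Foxn1 rose by 1.89 per µM (adjusted p = 4.84e-06), Tnfrsf19 by 1.53 (adjusted p = 0.000172), Dlx3 by 0.44 (adjusted p = 0.0105) and Edaradd by 0.42 (adjusted p = 0.0220), and Edar fell by 1.69 (adjusted p = 0.00549). Msx2 was the sixth. The slope of Edaradd was lost without the 3 µM library of culture 1 (0.170) or culture 2 (0.0809) and without DMSO culture 3 (0.0514). That of Dlx3 was lost without culture 2 (0.109), where 3 member slopes were called in all. Slopes called over all genes fell from 8908 to 5778 without culture 2.

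Differences between the 3 cultures, tested with the dose held constant, were called for Edar, Eda2r, Dlx3 and Trps1 (adjusted p = 0.0127, 0.0181, 0.0194 and 0.0190), 4 of 10 against 28.8% of all genes. In the first 3 treatments Edar was highest in culture 3 and Eda2r lowest in culture 1, and Dlx3 was highest in culture 1 at every dose. The count fell to 1 without the DMSO or the 1 µM library of culture 1, or without culture 1. It was 2 without culture 2. These fits called 3276, 2658, 1152 and 2741 of all genes, against 4417 from all libraries. The slopes of Tnfrsf19 were 2.09, 2.23 and 0.86 per µM in cultures 1, 2 and 3 (adjusted p = 0.470), so that gene, Msx2 and Edaradd (0.51, 0.57 and −0.04, adjusted p = 0.702) all had their lowest slope in culture 3 without a called difference.

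Ordered by RPKM, Trps1 led in every treatment, with 61.0 ± 11.4 RPKM in DMSO (SD, n = 3), above 95.9% of the genes tested. In DMSO it was followed by Edar (3.25), Dlx3 (3.13), Eda2r (1.88), Msx1 (1.42), Tbx3 (1.34), Edaradd (0.463), Msx2 (0.362), Tnfrsf19 (0.243) and Foxn1 (0.0615), all in RPKM. Only Trps1 and Edar, and Tbx3 and Edaradd, were neighbours whose 3 libraries did not overlap in that order. At 3 µM the order in RPKM was Trps1 (45.4), Dlx3 (7.32), Tnfrsf19 (4.89), Foxn1 (3.56), Eda2r (2.06), Msx2 (1.42), Tbx3 (1.40), Edaradd (1.05), Msx1 (0.576) and Edar (0.0662), and the neighbours that did not overlap were Trps1 and Dlx3, and Msx1 and Edar. Edar went from above 38.8% of the genes tested in DMSO to above 4.50% at 3 µM. Foxn1 went from above 1.33% to above 42.1%, and Tnfrsf19 from above 6.47% to above 48.7%.

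The genes nearest in pattern were taken by the root mean square distance of log2 CPM, each gene centred on its own mean, over the 12 libraries and 12439 genes. Foxn1 was nearest to Grhl3, a factor gene of the epidermal barrier, at a distance of 0.30 log2 units, and then to Cyp4f39 (0.40), a lipid enzyme gene of the epidermis, and Trbc2 (0.42). Edar was nearest to Cyp24a1, the gene of the vitamin D 24-hydroxylase, at 0.46, and Tnfrsf19 to Ly6d, a surface protein gene of stratified epithelia, at 0.49. Dlx3 was nearest to Epn3 (0.23), AI661453 (0.24) and Myo5b (0.24), and Msx1 to Fam198b (0.43), Nxpe4 (0.48) and Maob (0.48). Distances for the genes that varied little were small for that reason, with 0.12 for Tbx3 to Rnf169 and 0.10 for Trps1 to Zfp113. Edaradd was nearest to Pcyt1b (0.28) and Eda2r to Mapk11 (0.21). These are descriptions over libraries that share cultures and doses.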

How the data were processed

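Per the labels' protocols, RNA with polyA tails was prepared from 12 organoid samples with a stranded TruSeq kit and sequenced on a HiSeq machine. The authors deposited raw read counts by Ensembl identifier. A second deposited table holds log2 values, each equal to the log2 of the count scaled to 10 M per library plus 1 (0 values differed on recomputation), so only the counts were used. TopHat2 2.1, Bowtie 1.1.0, HTSeq, DESeq2 and GRCm38/mm10 are named in the submitters' processing notes without their roles. The annotation release and whether counting used the strand are not given in the sources used here. Library totals lay between 10.1 and 24.5 M counts. PCR copies cannot be told from molecules, so counting intervals (exact, 95%) cover counting error only.

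Genes kept by edgeR's filterByExpr (15316) were fitted over all 12 libraries with a mean per group (edgeR 4.0.16, R 4.3.3, TMM scaling, robust quasi-likelihood, two-sided), and p-values were adjusted by Benjamini and Hochberg over all genes, with a threshold of 0.05. CPM use the TMM-scaled total, and RPKM divide CPM by GENCODE M21 exon length in kilobases. Alternatives were a replicate block, DESeq2 (1.42.0) and its size factors, library size only, no filter, only the 2 groups compared, and each library left out. Leaving out whole cultures, and testing slopes by culture, were chosen after seeing the data.

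Numbers pair the libraries because each is an animal. Same-number deviations from group means correlated in all 18 pairs (0.177 to 0.840). The median for different numbers was −0.212. Taking deviations from means of 3 libraries makes it negative when same numbers correlate, so it is not separate evidence of pairing. Replicates within a group differed by more than sampling noise (chi-square per degree of freedom at least 12.8).

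The 10 members and the lists were chosen with earlier results of these data known. Named besides the members are, per list, the 4 called genes with the lowest adjusted p at 3 µM and at least 50 counts on average, 5 fixed genes (Eda, Lef1, Axin2, Hoxc13, Dlx5), and the nearest patterns with a distance of at most 0.5.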

Additional observations from a re-analysis of the deposited data

How the results depend on the processing

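Edar, Tnfrsf19 and Foxn1 kept their calls at 3 µM against DMSO under every alternative run, and no member's called change was reversed. Of 1460 single-gene alternatives, 1360 kept their call or lack of one, 63 lost and 37 gained the threshold. Direction was compared only where at least 1 of the 2 fits made a call. Changes that were never called could differ in sign. For Tnfrsf19 at 1 µM the log2 fold change ran from −0.67 to 1.14 over the fits that left out 1 library or 1 culture. With the replicate block, which uses the pairing by animal, the members called were 2 at 1.5 µM, 7 at 3 µM and 1 from 1 to 1.5 µM, and it gave 7 from 1 to 3 µM and 6 for the slope, as without it. DESeq2 gave 7 at 3 µM and 1 from 1 to 1.5 µM. Leaving out 1 library or 1 culture gave 0 members called at 1 µM, 0 to 2 at 1.5 µM, 3 to 6 at 3 µM, 0 to 1 from 1 to 1.5 µM, 1 to 5 from 1.5 to 3 µM, 4 to 7 from 1 to 3 µM, 3 to 7 for the slope and 1 to 5 for differences between cultures. Over all genes, 37 were called at 1 µM, 859 with the block, 477 in DESeq2 and 0 with only the 2 groups fitted, and at 1.5 µM 4177 and, with the block, 7146. From 1 to 1.5 µM 831 were called, 3352 with the block, 1602 in DESeq2 and 494 without a filter, and from 1.5 to 3 µM 4545, 7148 with the block and 2852 with only the 2 groups fitted. Without culture 2 the counts were 0 at 1 µM, 457 at 1.5 µM and 4769 at 3 µM, against 8813 at 3 µM from all cultures. Without culture 1 they were 3 at 1 µM and 1539 at 1.5 µM. Scaling by library size only moved the median of all genes at 3 µM from −0.03 to −0.23 on the log2 scale and the split from 4574 higher and 4239 lower to 3395 and 5401. With 10 counts of Edar at 3 µM and 11 of Foxn1 in DMSO, depth limits how exactly either ratio is known. The cause of the other differences between settings was not tested.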
